A study of Mus musculus with 5 samples.

Results

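Regulatory T cells are CD4 T lymphocytes that restrain immune responses and are defined by the transcription factor Foxp3. In the mouse kidney 195 cells met a rule for this cell type, of 12172 kept kidney cells and of 20619 kept cells in the 4 libraries with counts used here. Kept cells held 500 or more unique molecular identifiers (UMIs, counted RNA molecules) and 250 or more genes, with no more than 20% of UMIs from mitochondrial genes. The rule then took kidney cells with at least 1 UMI summed over Cd3d, Cd3e and Cd3g (the chains of the T cell receptor complex), at least 1 UMI of Foxp3 and 0 UMIs of Cd8a and Cd8b1. Of the 195 cells, 171 came from the wild-type kidney and 24 from the kidney labelled PD-1 knockout. The same rule found 1 cell in each of the intestinal libraries, both labelled wild type and group 3 innate lymphoid cells, of 3501 kept cells after sham surgery and 4946 kept cells 3 days after obstruction of the ureter.

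Both kidney libraries came from male mice 8 to 10 weeks old whose left ureter had been ligated and cut, a model of obstructive kidney injury and fibrosis (unilateral ureteral obstruction, UUO). The first was labelled wild type and taken 14 days after UUO. The second was labelled strain B6.Cg-Pdcd1tm1.1Shr/J, a knockout of the inhibitory receptor PD-1, and taken 3 days after UUO. Genotype and day differed together between them and cannot be told apart, and there was 1 library per group, so no difference between the libraries was tested and no p-value is given. A wild-type kidney library of day 3 also exists in the series, and its counts were not used here. The cells of both were labelled innate lymphoid cells, a population that does not include T cells, and how they were selected was not given in the labels. All 195 members carry CD3 UMIs because the rule required them, so their CD3 UMIs do not check that label. How many mice were pooled in each library was not given in the labels.

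As background, regulatory T cells use high CTLA-4 to withdraw costimulation from antigen-presenting cells and the interleukin-2 receptor alpha chain (Il2ra) to take up interleukin-2. They also carry the TNF receptors OX40 (Tnfrsf4), GITR (Tnfrsf18) and 4-1BB (Tnfrsf9), the folate receptor 4 protein (Izumo1r) and the Ikaros family factor Helios (Ikzf2). A tissue form carries the interleukin-33 receptor ST2 (Il1rl1), Klrg1 and Gata3 and makes the repair factor amphiregulin (Areg). A resting, recirculating form keeps the recirculation genes S1pr1 and Klf2.

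Foxp3 UMIs, which the rule required, were few per cell. Among wild-type members 87 cells held 1 Foxp3 UMI, 44 held 2, 22 held 3, 13 held 4 and 5 held 5 or more, with a highest count of 9. In the knockout-labelled library 13 cells held 1 UMI, 10 held 2 and 1 held 5. Members made up 6.24% (171 of 2742, 5.36 to 7.21%) of CD3 cells without Cd8 UMIs in wild-type kidney and 1.25% (24 of 1918, 0.803 to 1.86%) in the knockout-labelled kidney. Ranges in brackets are exact 95% intervals, binomial for shares and Poisson for levels, and cover counting error only. Where Cd4 was also required, the shares with Foxp3 were 15.3% (99 of 648, 12.6 to 18.3%) and 4.59% (18 of 392, 2.74 to 7.16%). The lower share lay in the library with the deeper cells: median depth of CD3 cells without Cd8 was 1836 UMIs in wild-type and 2185.5 UMIs in knockout-labelled kidney. With every cell thinned to 1000 UMIs and the class set again on the thinned counts, the shares were 4.38% (105 of 2398) and 0.740% (13 of 1756). With the selection of the cells not given, these shares describe the libraries and not the kidneys.

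B cells (Cd79a, no CD3), which should lack Foxp3, held it in 0 of 70 cells in wild-type kidney and 0 of 50 in the knockout-labelled kidney. At a limit of 3 cells, those counts of 0 allow shares of up to 4.29% and 6%. CD3 cells with Cd8 UMIs held Foxp3 in 1.19% (10 of 840, 0.572 to 2.18%) and 0.245% (8 of 3269, 0.106 to 0.482%), at median depths of 1712 and 1936 UMIs. Cells without any CD3 UMI held it in 1.04% (17 of 1630, 0.609 to 1.66%) and 0.169% (3 of 1773, 0.0349 to 0.494%), at 1849 and 2180 UMIs. The Foxp3 cells of these last 2 classes carried regulatory markers in wild-type kidney, so their shares cannot be read as stray Foxp3 UMIs alone. The 10 with Cd8 stood at 1310 CPM of Ctla4 and 480 CPM of Ikzf2 (CPM, the UMIs of a gene per 1000000 UMIs of the summed cells), and the 17 without CD3 at 1168 and 1126 CPM. In both libraries the share among CD3 cells without Cd8 lay above the intervals of both classes. In the plot of Foxp3 shares by class this held before and after thinning.

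**Figure D1:**
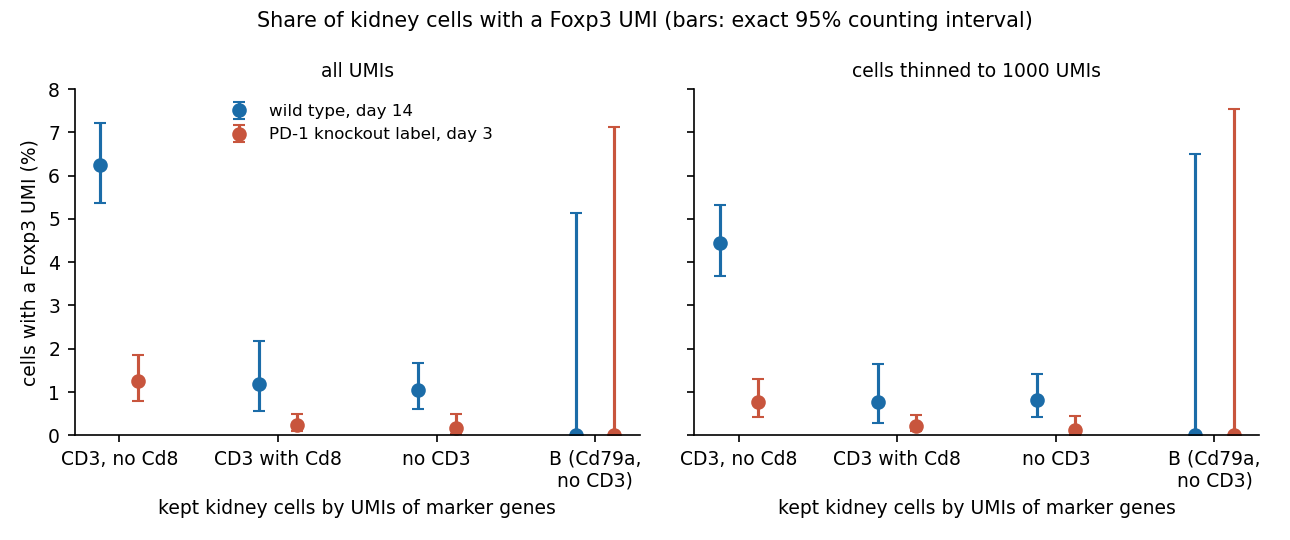
Percent of kept kidney cells with at least 1 Foxp3 UMI in 4 classes set by marker UMIs, for the wild-type library of day 14 (blue) and the library labelled PD-1 knockout of day 3 (red), with all UMIs (left) and in cells thinned to 1000 UMIs with their class kept (right). Points are shares and bars exact 95% counting intervals; CD3 cells without Cd8 stand at 6.24% and 1.25% on the left, and their 4.45% and 0.773% on the right are again the highest of the 4 classes in each library.

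The label was checked against 6 markers that the rule did not use: Ctla4, Tnfrsf4, Izumo1r, Il2ra, Ikzf2 and Tnfrsf18. In wild-type kidney 135 of 171 members (78.9%) held at least 3 of them, against 17.9% of 549 conventional CD4 T cells (CD3 and Cd4 UMIs, no Foxp3, no Cd8) and 2.76% of 796 CD8 T cells. In the knockout-labelled kidney the count was 14 of 24 (58.3%), against 22.5% of 374 conventional CD4 and 6.46% of 3080 CD8 T cells. At least 2 markers were present in 155 of 171 (90.6%) and 22 of 24 (91.7%) members, and also in 223 of 549 (40.6%) and 195 of 374 (52.1%) conventional CD4 T cells. As groups the members carried the markers more often than the other T cells. These markers do not tell a single member from another T cell that carries a stray Foxp3 UMI. A cell with 0 Foxp3 UMIs may still express Foxp3, so the conventional class may include regulatory T cells. In it 98 of 549 and 84 of 374 cells held at least 3 markers, and the part of such cells was not tested. Cd4 itself, which the rule also did not use, had a UMI in 99 of 171 (57.9%) and 18 of 24 (75.0%) members. In wild-type kidney, cells just inside the threshold lay between those further in and those outside it for Ctla4, Tnfrsf4 and Ikzf2. Wild-type members with a single Foxp3 UMI stood at 1855 CPM of Ctla4, 1153 CPM of Tnfrsf4 and 1086 CPM of Ikzf2, and those with 2 or more at 2126, 1353 and 1891 CPM. Just outside the threshold, conventional CD4 T cells with 0 Foxp3 UMIs stood at 813, 203 and 193 CPM. Between the 2 groups of wild-type members the intervals overlapped for Ctla4 (1642 to 2087 and 1910 to 2360 CPM). They also overlapped for Tnfrsf4 (987 to 1340 and 1182 to 1542 CPM) and not for Ikzf2 (925 to 1267 and 1687 to 2112 CPM). The knockout-labelled members showed this order for Ikzf2, with overlapping intervals (678 to 1497 and 727 to 1687 CPM), but not for Ctla4 or Tnfrsf4. Their 13 cells with a single Foxp3 UMI stood at 1562 CPM of Ctla4, 229 (83.9 to 498) CPM of Tnfrsf4 and 1029 CPM of Ikzf2, and the 11 with 2 or more at 1323, 709 (397 to 1169) and 1134 CPM, against 400.2, 254 and 158 CPM in conventional cells. Il2ra and Il1rl1 stood at 343 and 686 CPM with a single Foxp3 UMI and at 94.5 and 189 CPM with 2 or more.

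Other cell types were looked for with 13 marker lists. The summed level in members, wild-type and then knockout-labelled, was 9.56 and 21.1 CPM for the 6 B cell markers, 9.56 and 42.2 CPM for the 7 monocyte or macrophage markers, and 41.4 and 0 CPM for the 7 dendritic cell markers. The 5 neutrophil markers were all at 0 in both. The 8 NK and ILC1 markers summed to 31.9 and 127 CPM, against 289 and 548 CPM in conventional CD4 cells. The 6 CD8 T cell markers summed to 389 and 738 CPM, against 531 and 1456 CPM in conventional CD4 cells. Cd8a and Cd8b1 are at 0 in both classes by the rules. In CD8 T cells, which were chosen by Cd8a or Cd8b1 UMIs, the markers summed to 8225 and 9594 CPM. The 8 ILC3 markers summed to 293 and 316 CPM against 1569 and 1243 CPM in conventional cells, and the gamma-delta T cell markers to 121 and 21.1 CPM against 117 and 90.3 CPM. The 6 endothelial markers summed to 73.3 and 84.4 CPM and the 6 fibroblast markers to 0 and 21.1 CPM. Kidney epithelium markers, seen for 3 and 4 of 11, reached 86.0 and 189.8 CPM, where conventional CD4 cells held 17.0 and 555 CPM. Erythroid markers, seen for 1 and 3 of 5, reached 3.19 and 105 CPM. The part of free RNA or other cells in the differences between libraries was not tested. The 8 ILC2 markers summed to 2610 and 1561 CPM, but Il1rl1, Areg and Gata3 on that list also belong to tissue regulatory T cells.

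Depth was alike in members of both libraries but not their number. The 171 wild-type members held 313819 UMIs in sum (median 1688 per cell, 539 to 4521) and the 24 knockout-labelled members 47410 (median 1766, 856 to 4554), with median mitochondrial shares of 4.17% and 4.38%. A single UMI is therefore worth 3.19 CPM in the wild-type and 21.1 CPM in the knockout-labelled sum. Values of the knockout-labelled members rest on 24 cells and have wide intervals throughout. Of the wild-type barcodes, 25 were shared with the wild-type kidney library of day 3, 24 with sham and 24 with UUO intestine, and 1 of the 171 members was among them. The barcodes of the knockout-labelled library were not used here.

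Pdcd1, which encodes PD-1, was detected in members of both libraries. The gene lies at chr1:94038305-94052553 on the minus strand (GRCm38, GENCODE M21 gene models). In wild-type members it had 122 UMIs in 66 of 171 cells (38.6%), 389 (323 to 464) CPM. The knockout-labelled members held 10 UMIs in 6 of 24 cells (25.0%), 211 (101 to 388) CPM. After thinning the shares were 31.2% (24.1 to 39.1%) and 13.0% (2.78 to 33.6%). Conventional CD4 T cells stood at 82.0 and 115 CPM and CD8 T cells at 141 and 253 CPM. So in the wild type regulatory T cells had the highest of these 3 levels, and in the knockout-labelled library the interval of the members covers both other classes. B cells, a class that should hold little Pdcd1, had a UMI in 0 of 70 and 1 of 50 cells. These UMIs do not check the genotype, since which part of the gene the allele removes and where the counted tags lie were not given in the labels.

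Identity genes of regulatory T cells stood higher in members than in conventional CD4 T cells of the same library. Both classes share their library and day, so this comparison is free of the difference in genotype and time. It is a description and not a test, because the rule chose members by Foxp3 and the comparison class by Cd4. The conventional class may include regulatory T cells whose Foxp3 was not counted, and their part in its levels was not tested. A gene was called at a 2-fold difference in CPM + 10. Genes with at least 50 UMIs over both classes in each library numbered 3352. Of these, 40 (1.19%) were at least 2-fold higher in members in both libraries and 44 (1.31%) at least 2-fold lower in both. Against all CD3 cells without Foxp3 and Cd8 UMIs these counts were 85 and 275 of 7717 genes. Of the identity list, 11 of 18 genes had enough UMIs, and 6 were higher in both: Ikzf2, Tnfrsf9, Izumo1r, Dusp4, Ctla4 and Tnfrsf18. None was lower in both. In wild-type kidney alone 13 of 15 were higher, where the background was 4.1% of 4612 genes. Foxp3 is 1 of these 13, was higher by the rule and tells nothing here. In the knockout-labelled kidney 7 of 11 were higher, where the background was 5.07% of 3413.

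Ikzf2 (Helios, chr1:69531214-69687245, minus strand) led the comparison. Wild-type members held 1510.4 (1377 to 1653) CPM, with a UMI in 128 of 171 cells, and conventional CD4 cells 193 (168 to 221) CPM, 7.82-fold less. In the knockout-labelled library the levels were 1076 (801 to 1414) and 158 (133 to 186) CPM, a 6.82-fold difference, with 16 of 24 members positive. Neither pair of intervals overlapped. Tnfrsf9, the costimulatory receptor 4-1BB, stood at 1663 and 227 CPM in wild-type members and conventional cells and at 823 and 152 CPM in the other library. Its 39 UMIs there lay in 8 of 24 cells, against 117 of 171 wild-type cells. Izumo1r stood at 335 (274 to 405) CPM against 58.4 CPM, and at 253 (131 to 442) against 59.5 CPM. Ctla4 was 2.46-fold and 3.64-fold higher in members, at 1998 (1845 to 2161) and 1455 (1132 to 1842) CPM. Conventional CD4 cells also held much Ctla4, 813 and 400.2 CPM, with a UMI in 55.2% and 45.7% of cells.

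Tnfrsf4 and Il2ra passed 2-fold in the wild-type library and not in the other. Tnfrsf4 (OX40) was 6.21-fold higher in wild-type members, at 1259 (1138 to 1389) against 203 (176 to 232) CPM. In the knockout-labelled library it was 443 (274 to 677) against 254 (222 to 289.5) CPM, 1.74-fold (log2 ratio 0.08 to 1.45). Il2ra, the high-affinity interleukin-2 receptor chain, was 593 (511 to 684) against 173 CPM in wild type and 232 (116 to 415) against 194 CPM in the other library, 1.19-fold (log2 ratio -0.77 to 1.13). Whether these contrasts differ between libraries was not tested. Tnfrsf18 (GITR) was 3.75-fold and 2.32-fold higher.

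**Figure D2:**
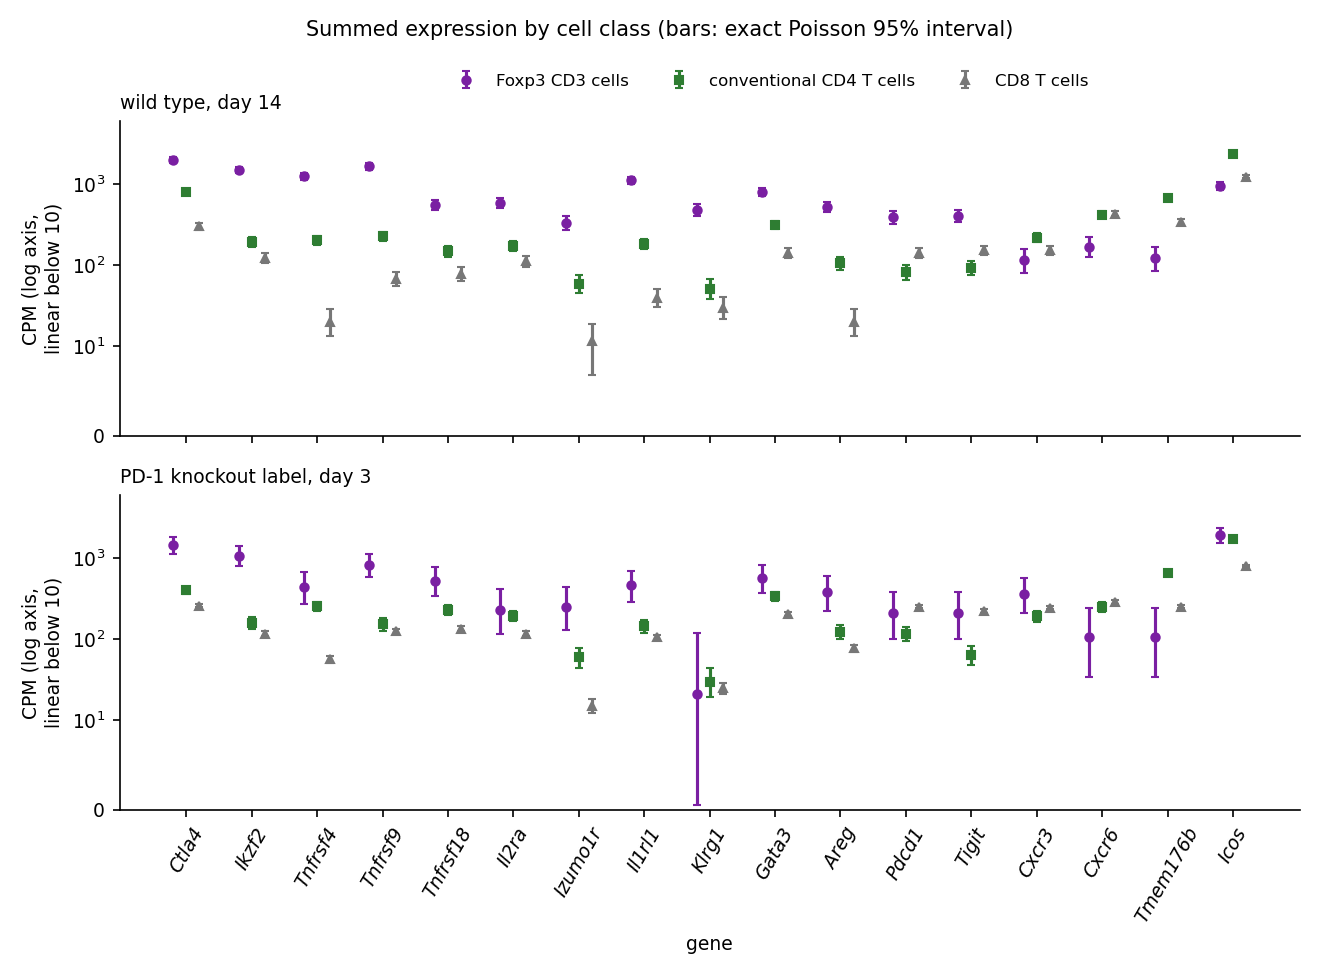
Level of 17 genes in CPM (log axis, linear below 10) summed over Foxp3 CD3 cells (purple circles), conventional CD4 T cells (green squares) and CD8 T cells (grey triangles), in the wild-type library of day 14 (top) and the library labelled PD-1 knockout of day 3 (bottom); bars are exact Poisson 95% intervals. Ikzf2 at 1510.4 and 1076 CPM stands above both other classes in each library, while Klrg1 does so at 481 CPM in the wild type only.

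Tissue genes, suppressive mediators and NF-kB genes were also among those higher in members. Of the tissue and effector list, Il1rl1 and Cd83 were higher in both libraries, 2 of 12 genes with enough UMIs, and none was lower in both. In wild-type kidney alone 6 of 16 were higher, while Icos and Rgs1 were lower, where 4.03% of all genes were lower. Il1rl1 (ST2, the interleukin-33 receptor) stood at 1115 (1002 to 1238) against 183 CPM and at 464 (291 to 703) against 144 CPM. Cd83, an activation protein, stood at 402 against 53.7 CPM and at 211 against 52.6 CPM. From the suppressive mediators Tigit, Areg and Gzmb were higher in both, 3 of 7. Furin and Nt5e of that list were lower than in conventional cells in the knockout-labelled kidney, where 13.4% of all genes were lower. Areg (amphiregulin) stood at 526 (449 to 612) against 106 CPM in wild type, with a UMI in 54 of 171 members, and at 379.7 (225 to 600.0) against 124 CPM in the other library, with a UMI in 7 of 24. Gzmb (granzyme B) rests on 21 UMIs in 6 cells and 9 UMIs in 3 cells. Of the TNF receptor and NF-kB list Tnfrsf9, Tnfrsf18 and the NF-kB subunit Rel were higher in both, 3 of 13.

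Itgav, the integrin alpha V chain that takes part in activating TGF-beta, was 6.29-fold and 3.93-fold higher in members. Its levels were 895 (794 to 1006) against 142 CPM and 548 (358 to 804) against 139.5 CPM, and 113 of 171 and 13 of 24 members held a UMI. The response genes of T cell receptor signalling included Egr1 and Nr4a1. Egr1 was 2.74-fold and 6.81-fold higher and had 585 UMIs in 67 wild-type cells and 107 UMIs in 10 knockout-labelled cells, so a minority of members carried it. Nr4a1, the Nur77 gene, was 2.14-fold and 2.28-fold higher at 1632 and 1603 CPM. Immediate early genes of this kind also react to tissue digestion, whose part was not tested. Arl5a, Mxi1, Trib1 and H2az1 were likewise among the 15 highest ratios, between 2.79-fold and 5.53-fold in either library.

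Genes of type 17 and innate-like lymphocytes stood lower in members than in the conventional class. In wild-type kidney the ILC3 markers Tmem176b, Tmem176a, Il22 and Il1r1 were lower, where the background was 4.03% of genes. In the knockout-labelled kidney, where 13.4% of all genes were lower, Tmem176b and Tmem176a were. Tmem176b, a membrane protein of type 17 cells, stood at 121 (85.7 to 166) against 675 CPM in wild type and at 105 (34.2 to 246) against 662 CPM in the knockout-labelled library, 5.58-fold and 6.28-fold lower. Tmem176a was 5.61-fold lower in wild type, and 11.2-fold lower with 2 UMIs in the other library (log2 ratio -6.54 to -1.62). Ehd3, an endosomal trafficking gene, stood at 25.5 against 179 CPM in wild type. It had 0 UMIs in the knockout-labelled members against 161 CPM, at least 2.55-fold lower at a floor of 3 UMIs. Krt83 showed the same pattern, at 31.9 against 199.7 CPM and at 0 against 102 CPM, at least 1.61-fold lower.

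Further low genes were Ikzf1 (Ikaros), at 140.2 against 472 CPM and 127 against 409 CPM, Pde7a, Arid5a, Tnfsf11 (RANK ligand), Rgcc and Dipk2a. Tcf7, the factor of naive and memory-like T cells, was 8.59-fold lower in wild-type members (66.9 against 575 CPM) and 2.38-fold lower in the other library (169 against 401 CPM). Satb1 and S1pr1 were 4.77-fold and 3.04-fold lower in wild-type members and 1.17-fold and 1.24-fold lower in the other library. The homing receptor Cxcr6 was 2.49-fold and 2.37-fold lower, at 169 (127 to 221) and 105 (34.2 to 246) CPM against 420.2 and 250.4 CPM. Among chemokine receptors and homing genes Cxcr6 was the only one of 15 past 2-fold in both libraries.

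**Figure D3:**
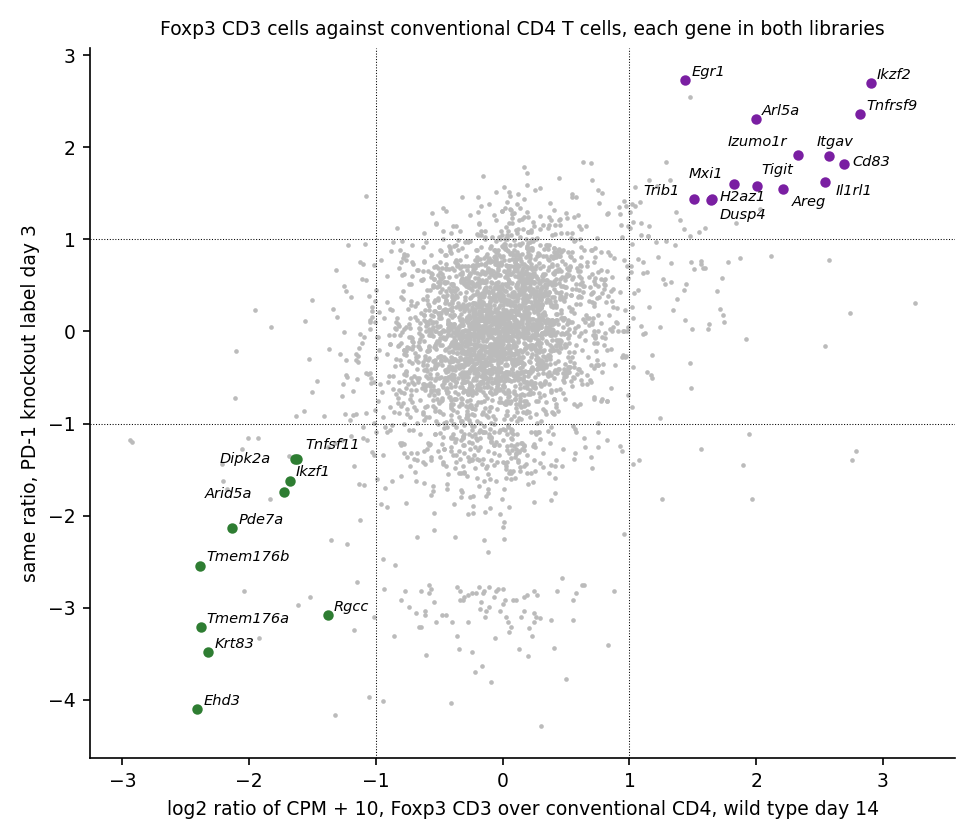
Each point is a gene with at least 50 UMIs over both classes in each library; the axes give the log2 ratio of CPM + 10, Foxp3 CD3 cells over conventional CD4 T cells, in the wild-type library (horizontal) and the library labelled PD-1 knockout (vertical), and dotted lines mark 2-fold. Genes of the 15 highest (purple) and 10 lowest (green) by the ratio nearer 0 are named, Ikzf2 at 2.90 and 2.69 lying farthest up on the right; the band near -3 on the vertical axis holds genes with 0 or few UMIs in the 24 knockout-labelled cells.

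A neighbour of Foxp3 needs care. Ccdc22 stood at 163 (121 to 214) CPM in wild-type members against 5.65 CPM in conventional cells, 28.8-fold higher. Its gene model on the minus strand (chrX:7593809-7605517) overlaps that of Foxp3 on the plus strand (chrX:7573644-7595245) by 1437 bases at their 3' ends. Whether counting used strand was not given in the sources used here, so this value is uncertain. Ccdc22 was looked at after its value had been seen.

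Of lineage factors of other helper cells, none of 7 with enough UMIs passed 2-fold in both libraries. In wild-type kidney 1 of 8 was higher in members, Stat3, and 2 were lower, Runx3 among them. In the knockout-labelled kidney 0 of 8 were higher and 1 was lower, Stat4. The shares of all genes higher and lower were 4.1% and 4.03%, and 5.07% and 13.4%. The median log2 ratios of the list were -0.45 and -0.23. The 13 genes of that list summed to 1647 and 1582 CPM in members and to 1529 and 1460 CPM in conventional CD4 cells. Tbx21, the T-bet gene of type 1 cells, had 0 UMIs in all 195 cells, which allows up to 9.56 CPM in wild-type and 63.3 CPM in knockout-labelled members at 3 UMIs. Conventional CD4 cells held it at 17.9 and 52.6 CPM. Gata3, from the tissue and effector list, is shared by tissue regulatory T cells and type 2 cells. It stood at 803 (707 to 909) against 315 CPM in wild type and at 569.5 (375 to 829) against 337 CPM in the other library. Effector cytokines summed to 137 and 148 CPM over 13 genes, with 6 and 9 of them at 0. Il10 had 4 UMIs in 3 wild-type cells and 4 UMIs in 3 knockout-labelled cells, 12.7 (3.47 to 32.6) and 84.4 (22.99 to 216) CPM. Lag3 had 2 UMIs and 0 UMIs.

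Between the libraries, knockout-labelled members of day 3 had more S1pr1 and Klf2 and less Klrg1, Il1rl1, Tnfrsf4 and Fgl2 than wild-type members of day 14. Genes with at least 50 UMIs over both groups of members numbered 1493. Of these 27 (1.81%) were at least 2-fold higher and 114 (7.64%) at least 2-fold lower in the knockout-labelled members. In conventional CD4 T cells of the same libraries, 1.19% of 5563 genes were higher and 1.01% lower. The excess of lower genes has to be read with the depth and the filter. The wild-type sum is 6.62 times larger, and 63 of the 114 lower genes had at most 3 UMIs in the knockout-labelled members. A gene could reach 50 UMIs through the wild-type members alone, with 0 or few UMIs in the others. All 27 higher genes held at least 10 UMIs in the knockout-labelled members. The filter thus let in lower genes more easily, and the counts of 27 and 114 cannot be set against each other. The 95% counting interval lay below 0 for 73 of the 114 and above 0 for 26 of the 27. It lay beyond 2-fold for 6 and 1 of them. With a Cd4 UMI required of members, 16 genes were higher and 70 lower of 880 with enough UMIs, and with cells thinned to 1000 UMIs 19 were higher and 57 lower of 663. The median log2 ratio of all 1493 genes was -0.03.

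Among resting and recirculation genes, S1pr1 and Klf2 stood higher in the knockout-labelled members. S1pr1, the receptor for lymph node egress, stood at 124 (88.4 to 169.9) and 316 (177 to 522) CPM. Klf2, a transcription factor that drives S1pr1, stood at 185 (140.3 to 239) and 443 (274 to 677) CPM. The intervals of the 2 libraries did not overlap for either gene. In conventional CD4 cells the log2 ratios of CPM were 0.05 (-0.16 to 0.27) for S1pr1 and 0.47 (0.20 to 0.73) for Klf2, against 1.35 and 1.26 in members.

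Itgb1, the integrin beta 1 chain, had the highest ratio. Wild-type members held it at 433 (364 to 513) CPM, with a UMI in 62 of 171 cells, and knockout-labelled members at 1561 (1226 to 1959.5) CPM, with a UMI in 19 of 24. This was the 1 higher gene whose interval lay beyond 2-fold. Conventional CD4 cells went the same way, from 771 to 1495 CPM. Cxcr3, a homing receptor of type 1 responses, stood at 115 (80.3 to 159) CPM in 20 wild-type cells and 359 (209 to 574) CPM in 6 knockout-labelled cells, while conventional cells held 219 and 191 CPM. Ms4a4b stood at 303 (245 to 370.1) and 886 (638 to 1197) CPM and in conventional cells at 783 and 749 CPM. Icos, a costimulatory receptor, stood at 953 (848 to 1067) and 1919 (1545 to 2357) CPM, and in conventional cells at 2376 and 1719.8 CPM. Cldnd1, Serpinb9, Rrp1, Klf4, Rap1a and Dnajc5 were also among the 12 highest, between 2.48-fold and 3.15-fold, each on 15 to 23 UMIs in the knockout-labelled cells. Klf4, at a log2 ratio of 1.33 in CPM + 10, lay at -0.073 where members needed at least 2 Foxp3 UMIs.

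Tissue and effector genes stood lower in the knockout-labelled members for 4 of 14: Klrg1, Ccr8, Il1r2 and Il1rl1, while Icos was higher. Of all genes 7.64% were lower and 1.81% higher, and whether the list differs from them was not tested. Klrg1, Ccr8 and Il1r2 reached the limit of UMIs through the wild-type members alone, with 151, 74 and 64 UMIs there. The filter let such lower genes in more easily, so the 4 cannot be set against Icos. Klrg1 (killer cell lectin-like receptor G1, chr6:122270596-122282882, minus strand) had the largest difference with a value in both libraries. Wild-type members held 151 UMIs in 61 of 171 cells, 481 (407 to 564) CPM, and knockout-labelled members 1 UMI in 1 of 24 cells, 21.1 (0.534 to 118) CPM. The log2 ratio was -4.51 (-9.82 to -2.01). Klrg1 was scarce in conventional CD4 cells of both libraries, at 50.9 and 29.7 CPM. Il1rl1 stood at 1115 (1002 to 1238) CPM in 88 cells and 464 (291 to 703) CPM in 6 cells, 2.40-fold lower. After thinning its share was 43.3% (35.4 to 51.4%) and 17.4% (4.95 to 38.8%). Ccr8 and Il1r2 had 3 UMIs each in the knockout-labelled cells, against 236 and 204 CPM in the wild type, with log2 ratios of -1.90 (-4.21 to -0.29) and -1.69 (-4.00 to -0.08).

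Of the identity list, 3 of 14 genes were lower and none higher. The shares of all genes were 7.64% lower and 1.81% higher, so none of 14 higher says little. Tnfrsf4 went from 1259 to 443 CPM in members (log2 ratio -1.51, -2.21 to -0.87) and from 203 to 254 CPM in conventional CD4 cells. Il2ra went from 593 to 232 CPM (-1.35, -2.38 to -0.48), and Tnfrsf9 from 1663 to 823 CPM (-1.02, -1.52 to -0.55). Foxp3 itself, at 1039 (929 to 1158) and 802 (567 to 1100.2) CPM, is set by the rule. Ctla4 and Ikzf2 were under 2-fold lower, with log2 ratios of -0.46 (-0.84 to -0.10) and -0.49 (-0.94 to -0.07). Tnfrsf18 stood at 554 and 527 CPM. From the suppressive mediators 3 of 6 were lower, Nt5e (the ectoenzyme CD73), Fgl2 and Furin. Nt5e and Furin rest on 3 and 5 UMIs, and the log2 ratio of Furin reached from -2.75 to 0.21. Fgl2, a secreted mediator of regulatory T cells, went from 940.0 (836 to 1054) CPM in 93 cells to 295 (161 to 495) CPM in 7 cells. Pdcd1 had a log2 ratio of -0.88 (-1.98 to 0.05), which did not reach 2-fold in CPM + 10.

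Among the 12 lowest ratios, Rgs16 and Tent5a have the firmest values. Rgs16, a regulator of G protein signalling, stood at 644 (558 to 739) CPM in 76 wild-type cells and at 105 (34.2 to 246) CPM in 3 knockout-labelled cells. Tent5a stood at 729.7 (638 to 831) CPM in 80 cells and 127 (46.4 to 275) CPM in 4 cells. Both were also higher in wild-type members than in conventional cells, 11.02-fold and 7.24-fold. Ednrb (the endothelin receptor B) had 50 UMIs in 28 wild-type members and 0 in the knockout-labelled ones, at least 2.52-fold lower at a floor of 3 UMIs, and stood at 159 against 10.4 CPM in wild-type members and conventional cells. Dynll1 had 54 and 0 UMIs, at least 2.72-fold lower. Cd81, Cxcl2, Plac8, Tnfsf8, Vamp3, Raph1 and Klf10 each had 1 UMI in the knockout-labelled members. Their log2 ratios lay between -3.67 and -2.95, with intervals that begin at -8.28 or lower and end between -1.15 and -0.40. These genes, like Ednrb and Dynll1, reached the limit of 50 UMIs through the wild-type members alone.

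In lists that describe the general state of the cells, the genes with enough UMIs stayed under 2-fold, except for Pcna of the cell cycle list. Of MHC class I genes 0 of 8 were past 2-fold, of oxidative phosphorylation 0 of 11, of glycolysis 0 of 6, of heat shock genes 0 of 4 and of immediate early genes 0 of 13, with list medians between 0.01 and 0.45 on the log2 scale. As 1.81% of all genes were higher and 7.64% lower, counts of 0 in lists this short say little. Cell cycle genes had enough UMIs for 3 of 15, of which Pcna was higher, at 316 against 153 CPM. Mki67 had 25 UMIs in 15 wild-type cells and 2 UMIs in 2 knockout-labelled cells, 79.7 (51.6 to 118) and 42.2 (5.11 to 152) CPM.

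**Figure D4:**
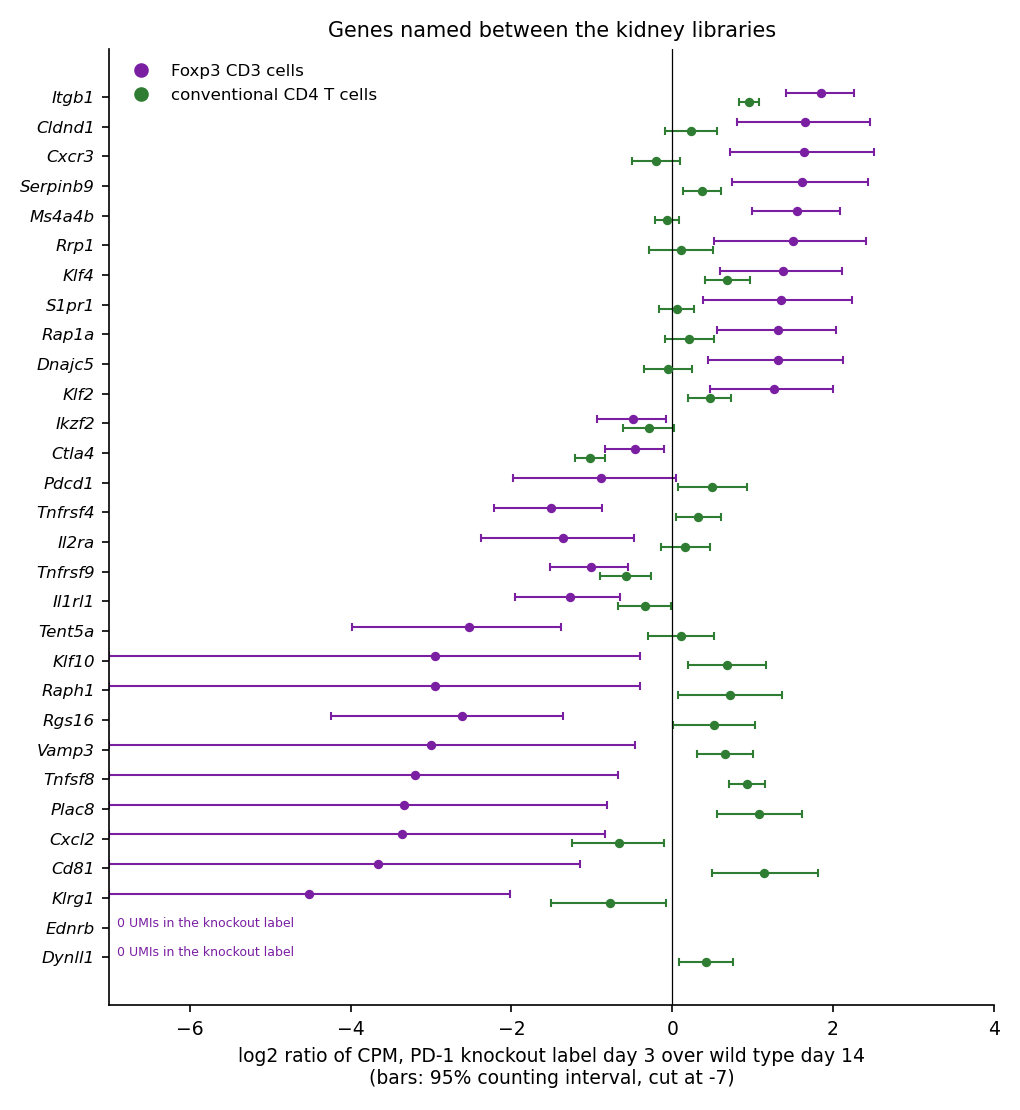
Log2 ratio of CPM, library labelled PD-1 knockout at day 3 over wild type at day 14, in Foxp3 CD3 cells (purple) and conventional CD4 T cells (green), with 95% counting intervals cut at -7, for genes of the 12 highest and 12 lowest and 7 marker genes between them. Itgb1 has the highest ratio, 1.85, and lies at 0.96 in conventional cells; Tnfrsf4 lies at -1.51 in members and 0.33 in conventional cells.

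Wild-type members were numerous enough to be split by single genes, which shows how they vary among themselves. A cell without a UMI may still express the gene, and both sides of a split share 1 library. The genes named in the splits were chosen after their values had been seen. Il1rl1 divided the cells most evenly, 88 with and 83 without a UMI, at median depths of 1717.5 and 1618 UMIs. Cells with Il1rl1 carried Klrg1 in 46 of 88 (52.3%) and cells without it in 15 of 83 (18.1%), at 769 (643 to 912) against 140 (85.2 to 215) CPM. They also had more Il2ra, at 739 against 419 CPM, more Areg, at 645 against 384 CPM, and more Gata3, at 980 against 593 CPM, with no overlap of intervals in any of the 3. Tnfrsf9 stood at 2047 against 1207 CPM. Cells without Il1rl1 had more Cxcr3, at 181 (118 to 266) against 58.7 (28.1 to 108) CPM, and more Tmem176b, at 209 against 46.9 CPM. Pdcd1 was present in the same share of both, 38.6%.

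Klrg1 gave a similar division from the other side: 61 cells held it and 110 did not. Cells with Klrg1 had Il1rl1 at 1951 (1709 to 2218) against 598 (494 to 718) CPM, Il2ra at 876 against 418 CPM, and Ctla2a, a cysteine protease inhibitor, at 775 against 217 CPM. Cells without it had more Klf2, at 263 (196 to 346) against 58.4 (23.5 to 120) CPM, and more Ms4a4b, at 423 against 108 CPM. They also had more of the immediate early genes Jun, at 428 against 100.06 CPM, Fos, at 872 against 359 CPM, and Egr1, at 2419 against 967 CPM. Both Klf2 and Ms4a4b were also among the genes that stood higher in the knockout-labelled members, of which 1 of 24 held Klrg1. Jun, Fos and Egr1 did not reach 2-fold between the libraries. Whether the share of cells with Klrg1 has a part in the library differences was not tested.

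Ikzf2 separated 128 cells with a UMI from 43 without, at median depths of 1702 and 1562 UMIs. Cells with it had more of the other regulatory markers: Tnfrsf4 at 1432 (1285 to 1591) against 679 (503 to 898) CPM, Tigit at 480 against 153 CPM, Nt5e at 397 against 153 CPM, Areg at 608 against 250 CPM and Gata3 at 914 against 430 CPM. Cells without Ikzf2 had more Cxcr6, at 458 (315 to 643) against 82.7 (50.5 to 128) CPM, in 12 of 43 against 13 of 128 cells. They had more Lmo4, at 582 (420 to 787) against 49.6 (25.7 to 86.7) CPM, in 10 of 43 against 9 of 128 cells, and more Tmem176b, at 388 against 41.4 CPM. Ccr2 stood at 513 against 236 CPM and S1pr1 at 277 against 78.6 CPM. Lmo4, Cxcr6 and Tmem176b rest on 42, 33 and 28 UMIs in 10, 12 and 12 cells without Ikzf2. Other T cells with a stray Foxp3 UMI would fall on this side of the split, and their part was not tested.

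**Figure D5:**
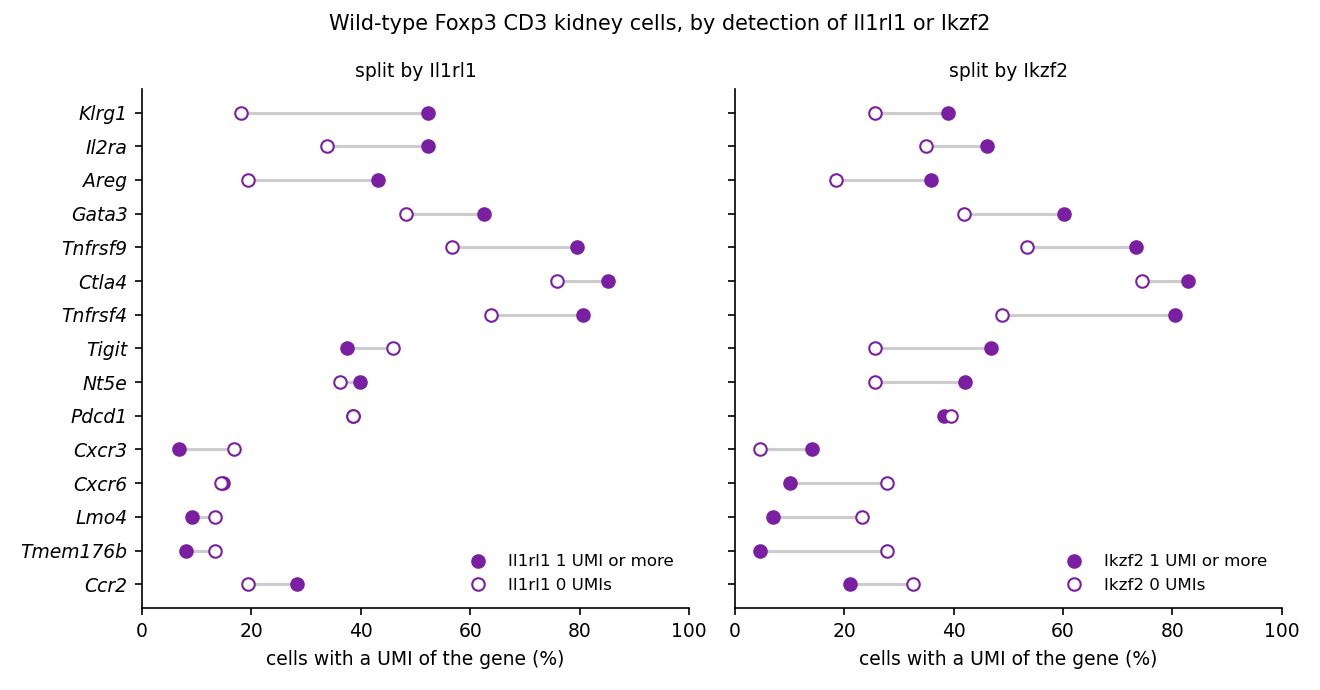
Percent of wild-type Foxp3 CD3 cells with a UMI of each of 15 genes, in cells with at least 1 UMI (filled) or 0 UMIs (open) of Il1rl1 (left, 88 and 83 cells) or Ikzf2 (right, 128 and 43 cells). Klrg1 differs most on the left, 52.3% against 18.1%, and Tnfrsf4 on the right, 80.5% against 48.8%.

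Smaller splits were made by Cxcr3, Pdcd1 and cell cycle genes. The 20 cells with Cxcr3 had less Il1rl1, at 448 (266 to 708) against 1213 CPM. The 66 cells with Pdcd1 had more Rgs16, at 921 (760.0 to 1105) against 460 CPM, and less Klf2, at 64.1 against 265 CPM. Mki67 or Top2a was present in 28 of 171 wild-type members (16.4%) and 3 of 24 knockout-labelled ones (12.5%, 2.66 to 32.4%). The cycling wild-type cells had more Klrg1, at 794 (591 to 1044) against 401 CPM. Among the 24 knockout-labelled members, 16 held Ikzf2, 6 Il1rl1, 6 Cxcr3 and 1 Klrg1, too few to split.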

How the data were processed

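BD Rhapsody single-cell libraries of kidney (2) and small intestine (2) were used, 1 per group. The authors deposited whole-number UMI counts per gene and cell for 31253 genes. CASAVA 1.8, UMI-tools, Seurat and mm10 are named in the submitters' processing notes, and neither aligner nor cell calling was given there. The labelled extraction protocol names pulmonary artery digestion, which does not match the organs. The wild-type matrix took its row names from the gene lists of the other libraries, which are identical. Gene positions are those of GENCODE M21 (GRCm38), where 31107 identifiers matched.

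Counts were summed over the cells of a class and library and given as CPM with exact Poisson 95% intervals. Shares have Clopper-Pearson intervals, and ratios of CPM have exact conditional binomial intervals. UMIs of 1 library are not biological replicates. A gene had at least 50 UMIs in the sums compared and was called at 2-fold in CPM + 10. Thinning drew 1000 UMIs per cell without replacement and left out shallower cells, which were 14 and 1 members and 15 and 14 conventional CD4 T cells (wild-type, then knockout-labelled). No doublet caller was run. As an alternative, cells with markers of B cells, myeloid cells or NK cells, or above the 99th percentile of UMIs, were left out. Scripts ran in Python 3.11.15 with numpy 2.4.6, scipy 1.17.1 and pandas 2.3.3, and were tested on simulated data.

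Between libraries the 12 highest and 12 lowest ratios were named, and against conventional CD4 T cells the 15 highest and 10 lowest by the ratio nearer 0, at 100 CPM or more, without mitochondrial, ribosomal, unnamed, receptor-segment and haemoglobin genes. Up to 4 members of each of 22 gene lists and 20 fixed genes were also named. The members, the lists and this rule were chosen with earlier results of these data known, and Ccdc22 and genes of the splits after their values were seen. Results of some genes are not reported here.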

Additional observations from a re-analysis of the deposited data

Results flagged for a closer look

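In 8 of the named genes the log2 ratio of CPM, knockout-labelled over wild-type library, was negative in regulatory T cells and positive in conventional CD4 T cells, with neither counting interval reaching 0. The difference between the cell types was not tested, as each group is 1 library. All but Tnfrsf4 were named for being among the 12 lowest ratios in regulatory T cells. Their negative sign there was thus fixed by the choice. The share of all genes with this pattern was not counted. Tnfrsf4 lay at -1.51 in regulatory T cells (21 UMIs in the knockout-labelled members) and 0.33 in conventional CD4 T cells. Rgs16 lay at -2.61 (5 UMIs) and 0.52. The other 6 rest on 1 UMI each in the knockout-labelled members and reached the limit of 50 UMIs through the wild-type members alone. They were Cd81 at -3.67 and 1.14, Plac8 at -3.34 and 1.08, Tnfsf8 at -3.20 and 0.93, Vamp3 at -3.001 and 0.66, Raph1 at -2.95 and 0.71, and Klf10 at -2.95 and 0.68.

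Foxp3 UMIs also appeared in cells without CD3 UMIs, which the gene comparisons did not use: in 17 of 1630 such cells of the wild-type kidney and in 7 of 4754 of the intestine after obstruction, against 3 of 3395 in the sham intestine. The 17 kidney cells were shallow, with a median of 1178 UMIs. They held Ctla4 in 11, Il2ra in 10, Ikzf2 in 9 and Il1rl1 in 8 cells, at 1168, 1001, 1126 and 1126 CPM.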

How the results depend on the processing

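Of 60 counts and shares under the alternatives, 39 stayed within the limits set (1.5 times for counts, the counting interval for shares) and 21 moved. A named gene counted as staying where its new log2 ratio lay in its own 95% counting interval, or within 1.5-fold where a count was 0. Such intervals are wide for genes with few UMIs, as for Klrg1 between libraries (-9.82 to -2.01). Those genes could hardly move, so the counts that follow say little about them. Of 492 values of named genes between the libraries 480 stayed, 11 moved and 1 reversed: Klf4, at -0.073 where 2 Foxp3 UMIs were required. Against conventional CD4 T cells 853 of 912 stayed and 59 moved. The cause of these changes was not tested. The share of regulatory T cells among CD3 cells without Cd8 was 3.06% (wild-type) and 0.574% (knockout-labelled) with at least 2 Foxp3 UMIs, and 4.38% and 0.740% after thinning. Between libraries, 16 genes were higher and 70 lower of 880 with a Cd4 UMI required, 1206 and 2004 of 10726 with at least 1 UMI, and 6 and 34 of 657 with at least 100 UMIs. After thinning 57 of 663 were lower. In both libraries against conventional CD4 T cells, 135 genes were higher and 154 lower of 11303 with at least 1 UMI, 25 and 23 of 1789 with at least 100 UMIs, and 20 and 21 of 1514 after thinning. With all CD3 cells without Foxp3 and Cd8 as the comparison class 85 were higher and 275 lower of 7717. The lower genes numbered 85 with at least 2 Foxp3 UMIs and 68 with a Cd4 UMI required. Requiring 2 or more other regulatory markers, chosen after seeing the data, kept 155 and 22 members, with 27 genes higher and 114 lower between libraries. Leaving out possible doublets kept 169 and 22 members. The median log2 ratio between libraries was -0.03. Scaling by it raised the ratios by that amount, with 32 genes higher and 108 lower. No paired analysis was possible because each group is 1 library. For the same reason no library could be left out. The 24 knockout-labelled members limit the precision, since 1 UMI there is worth 21.1 CPM.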
